A study of Mus musculus with 6 samples.

Results

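The 9 genes described here are Wdfy1, Nmnat1, Tpm3-rs7, Gm8797, Gm42031, Gm49980, Adgrg5, Cmc2 and Mrps12, 9 of 32285 genes listed for the injured enthesis, the site where the rotator cuff tendon inserts into bone. They were chosen by measured values, their summed UMIs per library and cell type, because they differed between wild-type controls and Nlrp3-/- mice in several cell types although they lie far from Nlrp3, as candidates for a difference in strain background. The genotype difference of the members is therefore given as a description, with no test. What the choice did not use was tested: differences between cell types within a genotype, and the genes that lie beside the members or share their pathways. Tpm3 was tested too, but its reads can be hard to tell from those of the member Tpm3-rs7. The 6 single-cell libraries, 3 per genotype, came from entheses collected 7 days post injury (dpi) after rotator cuff tear and repair in mice of 12 to 14 weeks. The deposited values are unique molecular identifiers (UMIs, counted RNA molecules) per gene and barcode.

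The wild-type controls were C57BL/6 mice bought from an animal center, and the Nlrp3-/- mice, which lack Nlrp3 in every cell, came from a commercial supplier of engineered lines. The protocol says that entheses were pooled, but not whether this was within a library or how many animals a library holds. The study describes its sample sizes as numbers of independent replicates, and its captions give n = 3 for each genotype here. The labels do not say that the libraries of a group came from separate animals or pools. If they came from 1 pool, the spread between libraries is technical. All titles of the second group name Nlrp3 knockout, while the genotype tags of its replicates 2 and 3 name other genes of the Nlrp family. Nlrp3 itself had 7282, 14511 and 10892 UMIs in the cells of wild-type replicates 1 to 3 and 0 UMIs in each Nlrp3-/- library. Xist, the RNA that coats the inactive X chromosome of female cells, had 0, 10 and 6 UMIs in the wild-type libraries against 59061, 89156 and 82766 in the Nlrp3-/- libraries. The Y-linked gene Ddx3y had 3414, 4826 and 4761 UMIs in the wild type and 0 in each Nlrp3-/- library. Genotype, sex of the cells and source of the mice thus change together, and their effects on the genes below cannot be told apart.

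Total depth ranged from 97042713 to 134901999 UMIs per library, and 80993 cells were kept. Nlrp3-/- replicate 1 stood apart: its median was 1482.5 UMIs per cell against 3793 to 6739 elsewhere, and 52.8% of its cells (95% Wilson interval 52.1 to 53.5) lay in clusters that held mostly shallow cells of that 1 library and were set aside, against 0.557% to 1.64% in the others. Pairs of libraries shared 24 to 91 cell barcodes. Cells were named from marker genes, and 10 types had at least 20 cells in each library, from 35 to 156 pericytes and smooth muscle cells up to 2248 to 5121 macrophages per library. Each name below stands for cells that resemble the type. The macrophages include a cluster of 2502 cells led by the osteoclast genes Atp6v0d2, Ctsk, Mmp9 and Acp5, and a cluster of 5443 cells led by Ccr2. The make-up and depth of some types differed between libraries. The 1146 myeloid progenitors of Nlrp3-/- replicate 1 had a median of 1557 UMIs, against 14857.5 to 19733 in the other libraries. Its plasmacytoid dendritic cells had a median of 1780.5 UMIs, against 4944 to 9270.5. Levels in these types below, as of Adgrg5 and Cmc2, include these shallow cells. A cluster led by the cartilage genes Col2a1 and Acan made up 25.98% of the mesenchymal cells of Nlrp3-/- replicate 2 and at most 5.97% of those of the other libraries, and a cluster of neutrophils made up 8.29% of that type in wild-type replicate 2 and at most 0.835% elsewhere. A cluster of 5219 shallow cells that was closest to neutrophils on the marker lists stayed unnamed, and held 4.79% to 16.6% of the cells of the wild-type libraries and 1.31% to 2.32% of those of the Nlrp3-/- libraries. Among the 10 leading genes of the plasmacytoid dendritic cells, 3 were on their marker list (Siglech, Cox6a2 and Ly6d) and 1 on that of B cells (Mzb1), and the leading genes Jchain, Igkc and Igha are also those of antibody-secreting cells. The B cells joined clusters led by Vpreb3 and Rag1, by Vpreb3 and Igll1, and by Ms4a1. Nlrp3-/- replicate 2 gave 45.8% of the cells of the first cluster, and wild-type replicate 3 gave 37.3% of those of the second. With the cartilage cluster and the neutrophil cluster of wild-type replicate 2 left out, 7 members had no overlap between the genotypes in mesenchymal cells and 9 in neutrophils, and with the unnamed cluster added to the neutrophils 9 did, the same numbers as below. Both alternatives were chosen after seeing the data. The share of all genes without overlap was not computed for them, and nothing is read from these counts. Levels are given as CPM, UMIs of a gene scaled to an equal total of UMIs, in the summed cells of a type in a library, as mean ± SD over 3 libraries. A UMI of 3′ chemistry marks 1 molecule whatever its length. In summed cells, a lower share of expressing cells and less RNA per cell cannot be told apart.

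Stocks of one inbred strain that are bred apart collect their own mutations, copy number changes and retrotransposed gene copies. An engineered line also carries the background in which it was made. A retrocopy is a gene that arose when a processed messenger RNA was copied back into the genome, and it can lie far from its source gene and resemble it closely. For such genes, the gene to which a short read is assigned can rest on a few bases.

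The members lie on 7 chromosomes, none of them chromosome 11, where Nlrp3 was annotated at chr11:59541568-59566956 (build GRCm38). Wdfy1 (chr1:79702262-79776143, minus strand) encodes an endosomal protein that links Toll-like receptors 3 and 4 to the adaptor TRIF. Nmnat1 (chr4:149467572-149485202, minus strand) encodes the nuclear enzyme that makes NAD. Mrps12 (chr7:28739641-28741820, minus strand) encodes a protein of the small subunit of the mitochondrial ribosome. Cmc2 (chr8:116888685-116921455, minus strand) takes part in the assembly of cytochrome c oxidase, and Adgrg5 (chr8:94923694-94943280, plus strand) encodes an adhesion G protein–coupled receptor of leukocytes. Gm42031 (chr8:85125872-85132289, minus strand) and Gm49980 were annotated as long intergenic noncoding RNAs. Gm42031 lay 9.79 Mb from Adgrg5, and Adgrg5 lay 21.95 Mb from Cmc2. Tpm3-rs7 (chr14:113314608-113316754, plus strand) and Gm8797 (chr3:5750806-5751295, plus strand) were annotated as protein coding, and their transcripts resemble those of Tpm3, which encodes a tropomyosin of the actin skeleton, and of Ubb, which encodes ubiquitin.

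The stretches below show how little separates these 2 members from their relatives. The Tpm3-rs7 transcript of 2147 bases was 99.1% identical to Tpm3 over 2108 aligned bases, with 19 differences, 3 of them in its 744 coding bases and 7 in the aligned part of its last 500 bases, the end that 3′ chemistry reads. The Gm8797 transcript of 490 bases was 98.2% identical to Ubb over 384 bases, with 7 differences. Each stretch is 120 coding bases from the GENCODE transcripts of GRCm38, written 5′ to 3′ on the plus strand, at chr14:113314683-113314802 for Tpm3-rs7 and at chr3:5750934-5751053 for Gm8797. Capitals mark the bases at which the members of a pair differ.
Tpm3-rs7: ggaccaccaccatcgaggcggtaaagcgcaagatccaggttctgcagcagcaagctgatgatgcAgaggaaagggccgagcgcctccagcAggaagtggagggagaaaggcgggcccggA
Tpm3: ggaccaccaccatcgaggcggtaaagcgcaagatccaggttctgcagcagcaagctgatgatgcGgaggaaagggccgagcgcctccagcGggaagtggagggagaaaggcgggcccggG
Gm8797: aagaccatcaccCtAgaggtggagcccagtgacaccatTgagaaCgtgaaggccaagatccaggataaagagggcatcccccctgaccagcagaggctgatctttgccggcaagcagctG
Ubb: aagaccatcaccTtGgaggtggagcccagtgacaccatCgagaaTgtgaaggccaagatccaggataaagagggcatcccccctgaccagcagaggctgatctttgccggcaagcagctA
Counted from 1 at the left, with the base of the member first, the differences were A65G, A91G and A120G between Tpm3-rs7 and Tpm3, and C13T, A15G, T39C, C45T and G120A between Gm8797 and Ubb. Of all 90-base windows of the members' transcripts, 53.5% in Tpm3-rs7 and 62.6% in Gm8797 also occurred, base for base, in a transcript of another gene, as did 29.0% in Gm49980, 26.0% in Gm42031 and 3.30% in Nmnat1. A read from such a window cannot tell these 5 members from the other gene, and how such reads were counted was not examined. No window of Wdfy1, Adgrg5, Cmc2 or Mrps12 was found in another gene, although Wdfy1 overlaps Mrpl44 on the opposite strand.

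The choice of members used the genotype differences, so the counts of types without overlap between the groups are set beside the share of all genes of at least 10 UMIs in the same state, and nothing is read from them. Higher in the wild type without overlap were 3.09% of genes in neutrophils, 4.63% in macrophages, 5.93% in mesenchymal cells, 6.01% in endothelial cells, 4.7% in pericytes and smooth muscle cells, 3.34% in B cells, 4.06% in T and NK cells, 4.41% in conventional and 3.59% in plasmacytoid dendritic cells and 3.84% in myeloid progenitors. Higher in Nlrp3-/- mice were, in the same order, 18.9%, 18.9%, 12.4%, 17.6%, 9.33%, 11.1%, 10.9%, 18.3%, 8.89% and 20.9%. Over all cells the shares were 4.57% and 16.6%, and all 9 members had no overlap. The tilt goes with the scaling: with TMM, which centres the bulk of genes, the shares were 8.33% and 7.95% in neutrophils, 10.2% and 10.6% in macrophages and 8.71% and 8.53% in mesenchymal cells. On raw totals the median gene tested was higher in Nlrp3-/- mice by 0.30, 0.17 and 0.10 on the log2 scale in these types, and with TMM by 0.03, 0.01 and 0.05. Log2 differences below come from fits with TMM, while CPM values are of raw totals. Of the 9 members, 9, 8 and 7 had no overlap in neutrophils, macrophages and mesenchymal cells on raw totals, and 9, 9 and 8 with TMM. The filter on low counts kept 9 members in macrophages, myeloid progenitors, plasmacytoid dendritic cells and T and NK cells, 8 in B cells, conventional dendritic cells, endothelial cells, mesenchymal cells and neutrophils, and 6 in pericytes and smooth muscle cells. Adgrg5 was the member left out in neutrophils and mesenchymal cells, Nmnat1 in conventional dendritic cells.

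Tpm3-rs7 was higher in the wild type than in Nlrp3-/- mice in each of the 10 cell types, with no overlap between the groups. In macrophages it had 182, 85.6 and 215 CPM in wild-type replicates 1 to 3 against 2.56, 1.96 and 2.72 CPM in the Nlrp3-/- libraries. Over the 10 types the wild-type means ran from 78.9 CPM in mesenchymal cells to 220 CPM in conventional dendritic cells, and the Nlrp3-/- means from 0.958 to 3.23 CPM. Wild-type replicate 2 lay below the other wild-type libraries in every type. The fitted difference in macrophages, Nlrp3-/- minus wild type on the log2 scale, was −6.19 ± 0.37 (SE).

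The share of Tpm3-rs7 in the UMIs of Tpm3-rs7 and Tpm3 together changed little from type to type within a library. Over all cells it was 46.7%, 24.3% and 54.4% in wild-type replicates 1 to 3 and 0.661%, 0.581% and 0.693% in the Nlrp3-/- libraries. Over the 10 types it stayed within 40.2% to 52.1% in replicate 1, within 20.7% to 26.2% in replicate 2 and within 46.1% to 57.9% in replicate 3 of the wild type, and at most at 0.939% in any Nlrp3-/- library. The sum of both genes over all cells was 312 ± 25.0 CPM in the wild type and 311 ± 13.1 CPM in Nlrp3-/- mice (n = 3 each), and over all cells the sums differed by less than the spread between libraries. In neutrophils the sum was 334 ± 32.1 CPM against 420.0 ± 46.7 CPM, a difference larger than either SD. These are raw totals, on which the median gene tested in neutrophils was also higher in Nlrp3-/- mice, by 0.30 on the log2 scale. Over all cells, Tpm3 by itself had 179 ± 33.3 CPM in the wild type and 309 ± 13.1 CPM in Nlrp3-/- mice.

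**Figure D1:**
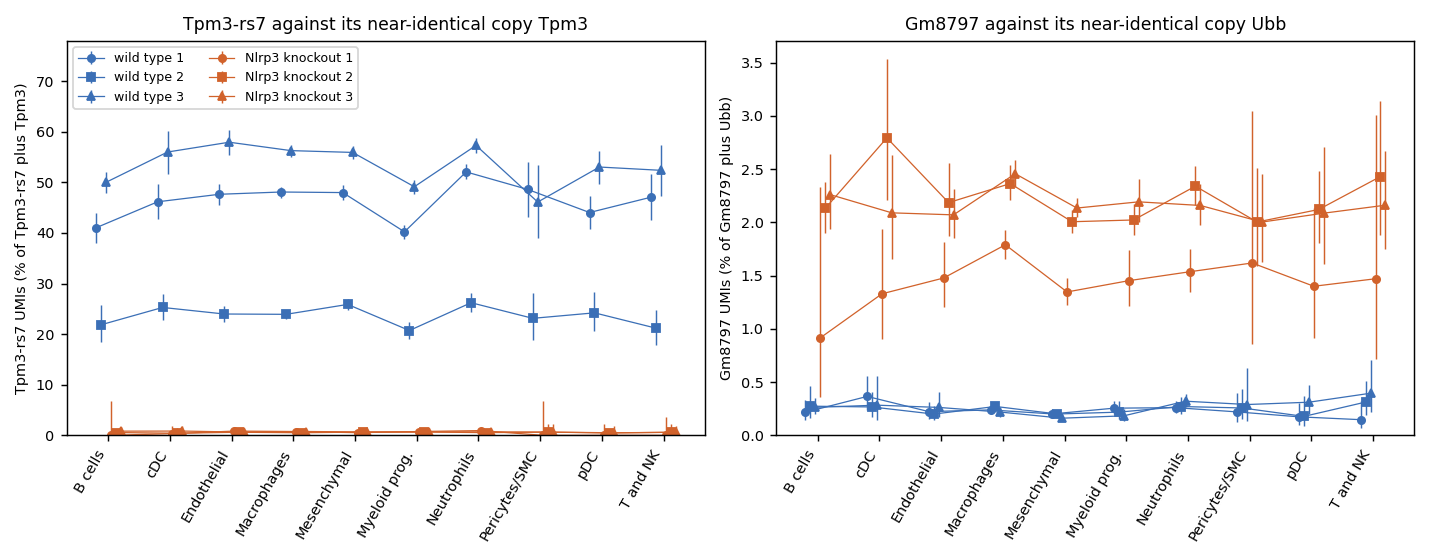
Share of UMIs (percent, linear axes) that Tpm3-rs7 took of Tpm3-rs7 and Tpm3 (left) and Gm8797 of Gm8797 and Ubb (right), by cell type, 1 line per library, with bars for the 95% Wilson interval of counting error. For Tpm3-rs7, wild-type replicate 2 lies below the other wild-type libraries in every type, within 20.7% to 26.2%. The ranges of replicates 1 and 3 overlap, at 40.2% to 52.1% and 46.1% to 57.9%. The Nlrp3-/- libraries lie near 0 for Tpm3-rs7, while for Gm8797 they are the higher ones.

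Tpm3, tested between the genotypes as a relative of a member, was not called in any of the 3 main types. Its log2 difference was 0.91 ± 0.21 in neutrophils (adjusted p = 0.175), 0.59 ± 0.19 in macrophages (adjusted p = 0.175) and 0.84 ± 0.18 in mesenchymal cells (adjusted p = 0.344), from edgeR's quasi-likelihood test with Benjamini-Hochberg adjustment over all genes. In neutrophils it had 154, 229 and 158 CPM in the wild type and 363, 450 and 438 CPM in Nlrp3-/- mice, and the groups did not overlap, as for 18.9% of all genes in this direction. Reads of Tpm3 and Tpm3-rs7 can be hard to tell apart, so this test is not independent of the difference by which Tpm3-rs7 was chosen.

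Gm8797 was the only member that was higher in Nlrp3-/- mice in most types. It had no overlap between the groups in any of the 10 types. In neutrophils it had 6.67, 6.55 and 8.67 CPM in the wild type and 49.5, 51.1 and 50.4 CPM in Nlrp3-/- mice. Wild-type means lay between 3.99 and 10.5 CPM and Nlrp3-/- means between 36.6 and 56.6 CPM. Its log2 difference was 3.14 in mesenchymal cells, 2.74 ± 0.17 in macrophages and 2.51 in neutrophils. Of the UMIs of Gm8797 and Ubb over all cells, Gm8797 held 0.232%, 0.241% and 0.230% in the wild type and 1.64%, 2.15% and 2.22% in Nlrp3-/- mice. Ubb had 2469 ± 199.9 CPM in the wild type and 2092 ± 95.1 CPM in Nlrp3-/- mice, so a change of some CPM in Gm8797 is small beside it.

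Wdfy1 was lower in Nlrp3-/- mice without overlap in 9 of 10 types. In macrophages it had 38.5, 42.8 and 49.4 CPM in the wild type and 13.8, 14.3 and 13.1 CPM in Nlrp3-/- mice, a 3.17-fold difference of the means, and in neutrophils 30.5, 30.1 and 43.1 CPM against 16.7, 19.4 and 17.7 CPM. The groups overlapped in B cells, where Nlrp3-/- replicate 1 rested on 81 cells, and did not overlap there without that library. Wild-type levels were highest in endothelial cells, at 93.0 ± 19.4 CPM, followed by pericytes and smooth muscle cells at 68.6 ± 3.3 CPM, 2 neighbours in the order whose libraries did not overlap. The 7 types from mesenchymal cells at 49.5 CPM down to conventional dendritic cells at 26.8 CPM overlapped with their neighbours in the order, and B cells were lowest at 14.4 ± 1.2 CPM.

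Nmnat1 was lower in Nlrp3-/- mice without overlap in all 10 types. It had 17.7, 14.9 and 14.5 CPM in wild-type macrophages and 2.99, 3.91 and 4.69 CPM in Nlrp3-/- macrophages. In neutrophils, where its wild-type level was lowest, it had 5.21, 4.32 and 3.60 CPM against 0.229, 0.580 and 0.221 CPM, from 141 and 10 UMIs. Its log2 difference was −3.80 in neutrophils, −2.18 ± 0.19 in macrophages and −2.23 in mesenchymal cells. Wild-type means lay within 4.37 to 19.4 CPM, and 7 of the 10 types, from endothelial cells down to plasmacytoid dendritic cells, lay between 15.6 and 19.4 CPM.

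Mrps12 was lower in Nlrp3-/- mice without overlap in 9 of 10 types, by less than the members above. In mesenchymal cells it had 112, 121 and 79.1 CPM in the wild type and 57.2, 42.2 and 46.4 CPM in Nlrp3-/- mice. In neutrophils the groups nearly met, at 26.8, 24.1 and 24.8 CPM against 15.1, 23.9 and 18.7 CPM. The log2 difference was −1.16 in mesenchymal cells, −0.82 ± 0.14 in macrophages and −0.68 in neutrophils. The groups overlapped in T and NK cells, and without Nlrp3-/- replicate 1 in none of the 10 types.

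The noncoding RNAs Gm42031 and Gm49980, the latter at chr18:30267249-30272133 on the plus strand, were lower in Nlrp3-/- mice without overlap in 9 and 8 of 10 types. Gm42031 had 97.8, 50.6 and 77.9 CPM in wild-type macrophages and 7.75, 6.88 and 5.04 CPM in Nlrp3-/- macrophages. Its wild-type means spanned 1.49 CPM in pericytes and smooth muscle cells, where the groups overlapped, to 127 ± 11.1 CPM in B cells. Gm49980 had 15.9, 14.03 and 13.7 CPM in wild-type mesenchymal cells and 4.91, 4.996 and 5.19 CPM in Nlrp3-/- mesenchymal cells. It was highest in B cells, at 105, 111 and 204 CPM in the wild type and 30.9, 147 and 33.9 CPM in Nlrp3-/- mice, where Nlrp3-/- replicate 2 lay within the wild-type range and the groups overlapped. Without that library, Gm49980 had no overlap in any of the 10 types. In B cells this follows from leaving out the library that overlapped. The make-up of the B cells differed between libraries, and whether the level of Gm49980 goes with it was not tested. Gm43305, a gene that shares 303 windows with Gm42031, had 30.7, 30.1 and 35.4 CPM over all wild-type cells and 6.31, 10.7 and 5.99 CPM over all Nlrp3-/- cells. Chd9, which encodes a chromatin remodeller and shares 58 windows with Gm42031, had 27.7, 32.2 and 39.6 CPM in the wild type and 43.3, 49.1 and 40.97 CPM in Nlrp3-/- mice, so it was the higher one in Nlrp3-/- mice without overlap. Gm4316, with 13 shared windows, lay between 0.474 and 1.13 CPM in all libraries.

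Adgrg5 differed most from type to type. Wild-type conventional dendritic cells had 50.5, 47.7 and 58.5 CPM against 21.6, 10.6 and 10.99 CPM in Nlrp3-/- mice. In macrophages it had 13.1, 7.57 and 11.3 CPM in the wild type and 0.183, 0.0631 and 0.0353 CPM in Nlrp3-/- mice, from 675 UMIs against 5. The totals were 366 UMIs against 9 in myeloid progenitors, 102 against 2 in plasmacytoid dendritic cells and 251 against 39 in conventional dendritic cells. In T and NK cells it had 19.0, 22.7 and 20.3 CPM in the wild type and 24.8, 42.5 and 24.1 CPM in Nlrp3-/- mice, from 66 and 71 UMIs, and the fitted log2 difference was 0.44 ± 0.32 (SE). The groups did not overlap in that type, as for 10.9% of all genes in this direction, with or without Nlrp3-/- replicate 1, which held 5 of the cells with a UMI of Adgrg5 there. In neutrophils the groups did not overlap, but the levels rested on 10 UMIs against 1. In B, endothelial and mesenchymal cells Adgrg5 was under 1 CPM in both genotypes, and in pericytes and smooth muscle cells it had 0 UMIs.

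Cmc2 was the member whose groups overlapped most often, in 7 of 10 types. It was lower in Nlrp3-/- mice without overlap in neutrophils, myeloid progenitors and plasmacytoid dendritic cells. In neutrophils it had 83.4, 74.6 and 75.6 CPM in the wild type and 27.5, 45.1 and 39.0 CPM in Nlrp3-/- mice, a log2 difference of −1.36 ± 0.17. In macrophages it had 49.7, 48.2 and 57.7 CPM against 48.9, 50.1 and 48.6 CPM, and the groups overlapped, with a log2 difference of −0.24 ± 0.09. Without Nlrp3-/- replicate 1 its groups did not overlap in 5 types, and without wild-type replicate 3 in 6 types.

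**Figure D2:**
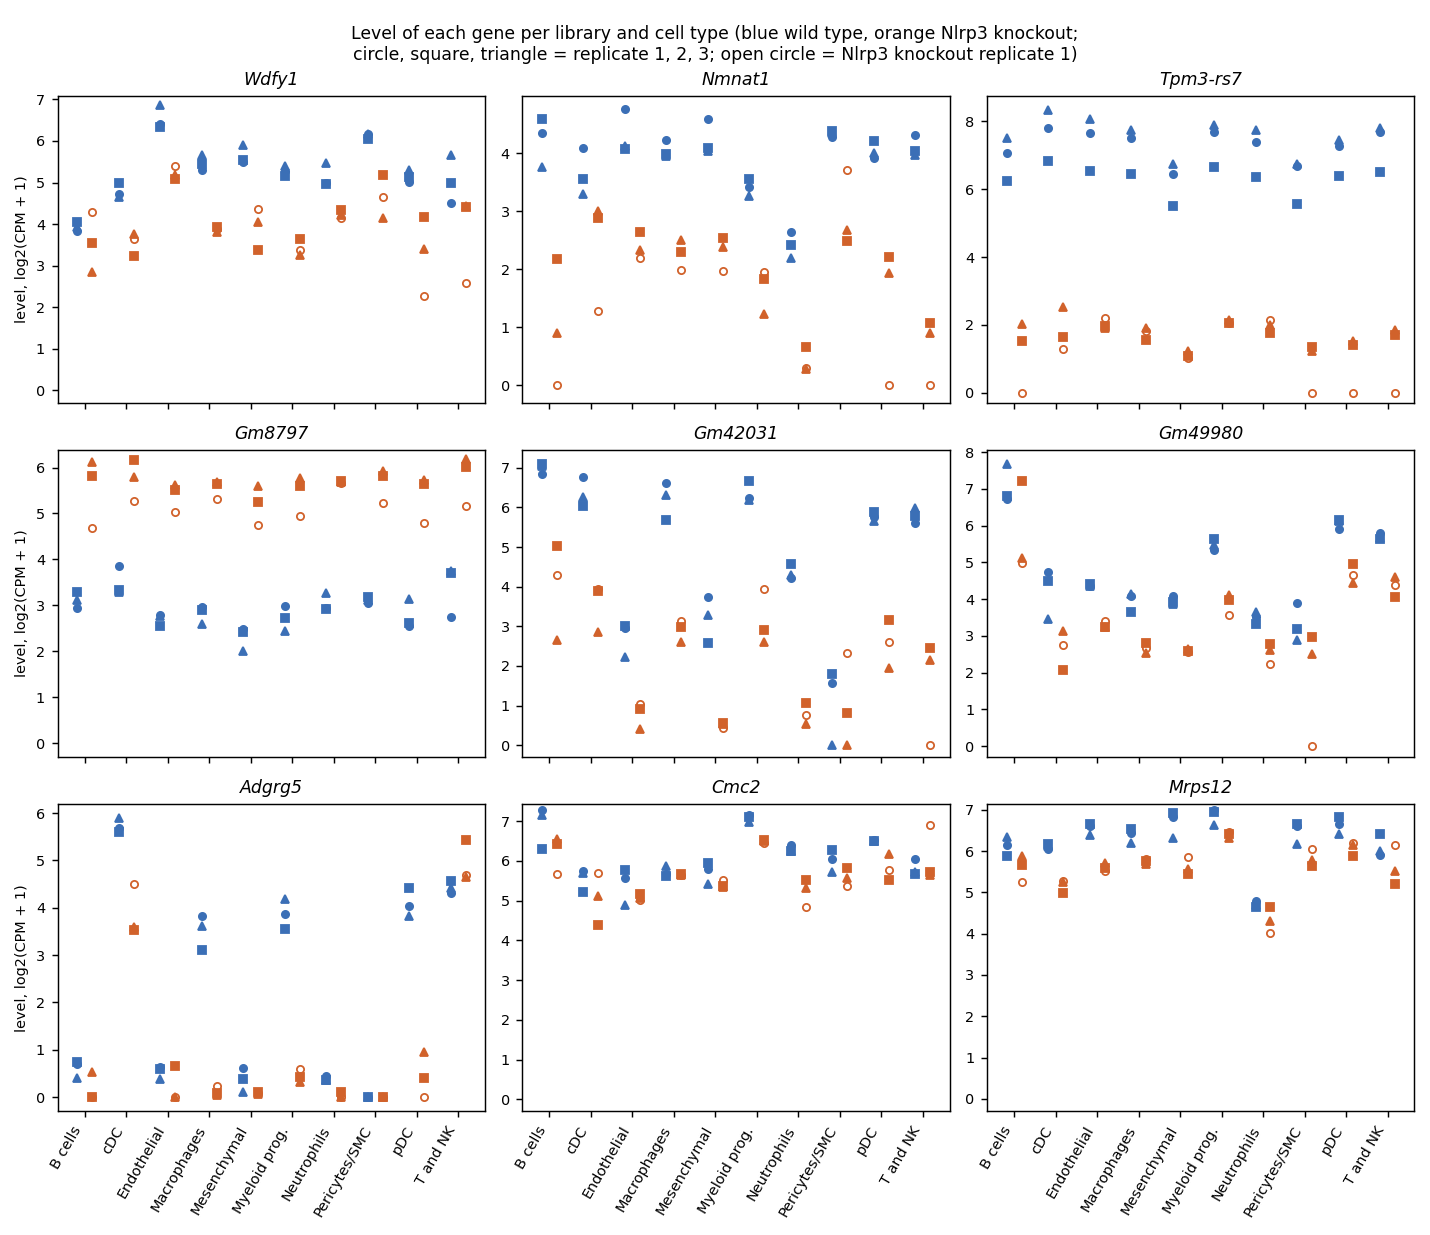
Level of each member (log2 of CPM + 1, linear axes that differ in range between panels) in the 10 cell types, 1 point per library, wild type in blue and Nlrp3-/- in orange, with circles, squares and triangles for replicates 1 to 3 and open circles for Nlrp3-/- replicate 1. The wild-type points lie above the Nlrp3-/- points in 10 of 10 types for Nmnat1 and Tpm3-rs7 and below them in 10 of 10 for Gm8797, while those of Cmc2 overlap in 7.

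**Figure D3:**
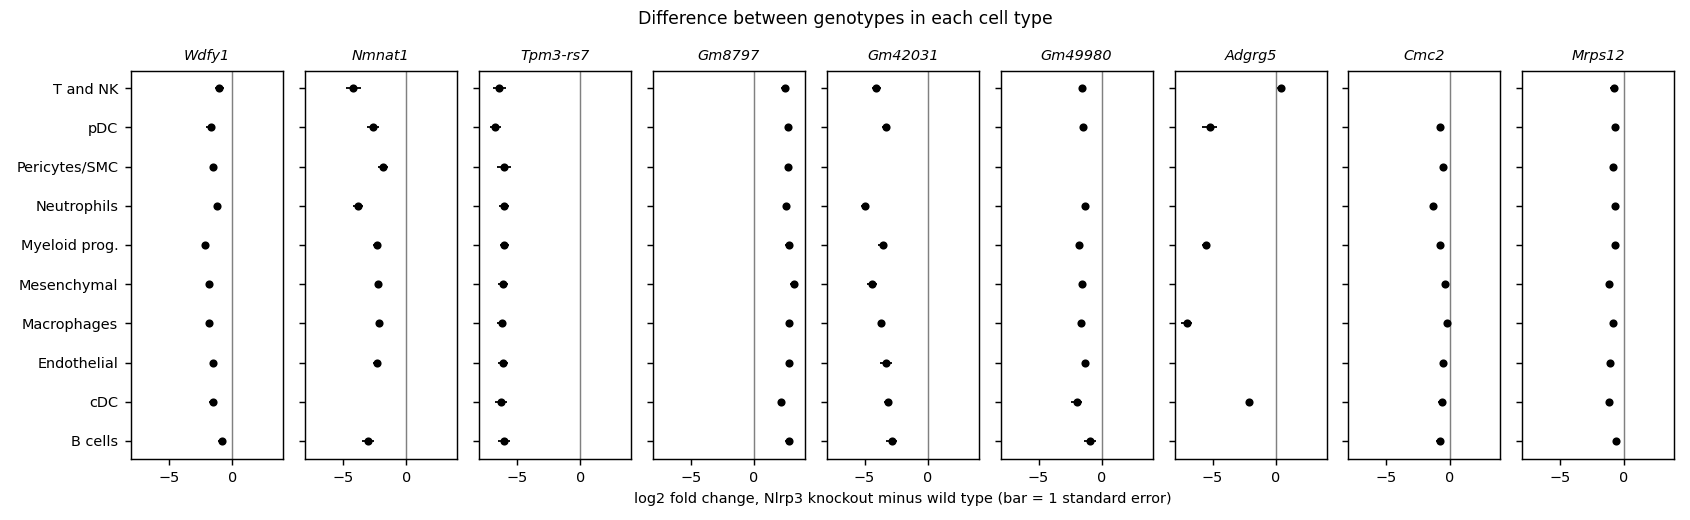
Log2 difference of each member, Nlrp3-/- minus wild type, in each cell type where it passed the filter on low counts, with bars of 1 SE from the edgeR fit. All points of Gm8797 lie above 0, those of Tpm3-rs7 lie lowest together with Adgrg5 in macrophages at −7.05, and Adgrg5 in T and NK cells lies above 0 at 0.44. Cmc2 in T and NK cells, at 0.00, is left out because the SE was taken as the difference over the square root of its test statistic, which is unstable at a difference near 0.

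Barcodes of at most 100 UMIs hold free RNA of the suspension. There 8 members were higher in the wild type without overlap, against 4.06% of all genes, and 1, Gm8797, was higher in Nlrp3-/- mice, against 9.59%. The sizes of these differences were not compared with those in cells. Tpm3-rs7 had 106, 49.3 and 129 CPM in the wild type and 1.82, 3.70 and 3.06 CPM in Nlrp3-/- mice. Gm8797 had 9.94, 8.16 and 6.15 CPM there against 72.0, 101.3 and 110.1 CPM, above its level in cells of Nlrp3-/- mice. Adgrg5 had 9.77, 5.56 and 8.41 CPM against 1.82, 1.08 and 0.644 CPM. Levels under 1 CPM of Adgrg5 in B, endothelial and mesenchymal cells lie below this free RNA. So did those in the macrophages and myeloid progenitors of each Nlrp3-/- library, at 0.0353 to 0.183 CPM and 0.243 to 0.520 CPM, so the few UMIs there cannot be told from free RNA.

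Levels between cell types within a genotype were not used in choosing the members, and were tested with edgeR's quasi-likelihood test with the library as a block. The scaling weighs on these pairs. With TMM, which centres the bulk of genes, the median gene tested in the wild type differed by −0.12 on the log2 scale between neutrophils and macrophages and by 0.32 between mesenchymal cells and neutrophils, and on raw totals by −1.02 and 1.36. In Nlrp3-/- mice these medians were −0.08 and 0.27 with TMM and −0.88 and 1.11 on raw totals. Differences with TMM are therefore relative to the bulk of genes, while CPM values are shares of all UMIs, and a gene can be higher on the first scale and lower on the second.

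In the wild type 9 of 9 members were called between neutrophils and macrophages with TMM, 5 higher and 4 lower in neutrophils, against 65% of all genes tested. The count was 7 without the library block or without wild-type replicate 1, and 8 without a filter on low counts or without wild-type replicate 2. On raw totals, an alternative chosen after seeing the data, 7 were called, 1 higher and 6 lower, against 72.7%. Between mesenchymal cells and macrophages 4 of 9 were called, against 73.4%, and 5 on raw totals, against 72.1%. The counts of both pairs include Adgrg5, which of these types had enough counts in macrophages alone. Between mesenchymal cells and neutrophils 8 of 9 were called on each scale, against 82.2% with TMM and 85.3% on raw totals. With TMM 2 of these 8 were higher and 6 lower in mesenchymal cells, and on raw totals 4 were higher and 4 lower. In Nlrp3-/- mice the fit kept 8 members, without Adgrg5, and called 7, 2 and 8 of them in these pairs, against 62.5%, 67.5% and 78.8% of all genes. On raw totals it called 3, 2 and 4, against 68.3%, 65.8% and 81.5%. Between neutrophils and macrophages 4 were called higher and 3 lower in neutrophils with TMM, and 0 and 3 on raw totals, and between mesenchymal cells and neutrophils 2 were higher and 6 lower in mesenchymal cells with TMM, and 2 and 2 on raw totals. The counts with TMM fell to 4, 1 and 5 without Nlrp3-/- replicate 3. The Nlrp3-/- counts include Nmnat1 and Gm42031, which had 10 and 20 UMIs in neutrophils, and Gm42031 had 43 in mesenchymal cells. They also include Tpm3-rs7, whose residual UMIs there cannot be told from free RNA.

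Nmnat1 and Mrps12 were lower in neutrophils than in macrophages in the wild type on both scales, and Mrps12 also in Nlrp3-/- mice. Nlrp3-/- neutrophils held 10 UMIs of Nmnat1, against 244 in macrophages, so its Nlrp3-/- size and call below are not read as a result. With TMM the log2 difference of Nmnat1 was −0.94 ± 0.14 in the wild type (adjusted p = 0.000198) and −2.64 ± 0.38 in Nlrp3-/- mice (adjusted p = 0.000465), and that of Mrps12 was −0.78 ± 0.11 and −0.64 ± 0.17 (adjusted p = 0.000121 and 0.01002). The call of Mrps12 in Nlrp3-/- mice was lost without replicate 3 (adjusted p = 0.0673). Cmc2 was higher in wild-type neutrophils than in macrophages, by 1.5 ± 0.14 with TMM (adjusted p = 7.24e-06) and by 0.58 ± 0.15 on raw totals (adjusted p = 0.00466). In Nlrp3-/- mice that difference was 0.39 ± 0.16 with TMM (adjusted p = 0.0576) and −0.40 ± 0.17 on raw totals (adjusted p = 0.0606). It was called, and higher in neutrophils, under 7 alternatives, with adjusted p from 0.00826 to 0.0492: RLE size factors, cells of at least 1000 UMIs, doublets kept, no library block, DESeq2, without Nlrp3-/- replicate 1 and without clusters mostly of 1 library. The change of the difference between the genotypes was not tested.

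The direction of Wdfy1 and Gm49980 between these types turned with the scaling. Wdfy1 had a mean of 34.6 CPM in wild-type neutrophils and 43.6 CPM in wild-type macrophages. Its log2 difference, neutrophils minus macrophages, was 0.57 ± 0.10 with TMM (adjusted p = 0.000516) and −0.34 ± 0.10 on raw totals (adjusted p = 0.00970). In Nlrp3-/- mice, at 17.9 and 13.7 CPM, it was 1.20 ± 0.21 with TMM (adjusted p = 0.00129) and 0.41 ± 0.24 on raw totals, where it was not called (adjusted p = 0.160). Gm49980 had means of 10.4 and 14.7 CPM in wild-type neutrophils and macrophages, with a log2 difference of 0.42 ± 0.13 with TMM (adjusted p = 0.0189) and −0.50 ± 0.15 on raw totals (adjusted p = 0.0116). The call with TMM was lost under 5 alternatives, without a filter on low counts, without the library block, without wild-type replicate 1 or 2 and with the unnamed cluster added to neutrophils (adjusted p from 0.0579 to 0.146). For Wdfy1, Nmnat1, Mrps12, Cmc2 and Gm49980, no difference between mesenchymal cells and macrophages was called with TMM in either genotype, while that of Mrps12 in the wild type was called on raw totals, at 0.32 ± 0.12 (adjusted p = 0.0362), and by DESeq2 (adjusted p = 0.0325), and that of Cmc2 in Nlrp3-/- mice without replicate 1 (adjusted p = 0.0361).

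On the log2 scale Gm42031 was lower in wild-type mesenchymal cells than in macrophages by −3.28 ± 0.25 (adjusted p = 1.61e-06). In Nlrp3-/- mice the fit gave −3.92 ± 0.30 (adjusted p = 9.41e-06). There Gm42031 had 43 UMIs in mesenchymal cells, at 0.343 to 0.462 CPM, against 379 in macrophages, the type in which it was high. The Nlrp3-/- size and call are therefore not read as a result. Adgrg5 in the wild type was lower in neutrophils than in macrophages by −4.22 ± 0.42 (adjusted p = 1.47e-05) and in mesenchymal cells by −5.26 ± 0.33 (adjusted p = 3.80e-07). Of these types it had enough counts in macrophages alone. Its 10 UMIs in wild-type neutrophils and 26 in wild-type mesenchymal cells lay below free RNA, so neither the sizes nor the calls are read as a result. Tpm3-rs7 and Tpm3 were both lower in wild-type mesenchymal cells than in macrophages, by −1.15 ± 0.09 and −1.19 ± 0.09 (adjusted p = 2.22e-06 and 1.70e-06), and were called lower there on raw totals too. In Nlrp3-/- mice the residual UMIs of Tpm3-rs7 gave −1.07 ± 0.25 for this pair, against −0.97 ± 0.11 for Tpm3, and the former was not called without replicate 3 (adjusted p = 0.0725). At 1.03, 1.11 and 1.34 CPM in Nlrp3-/- mesenchymal cells, Tpm3-rs7 lay below free RNA in each library. In macrophages it did so in replicates 2 and 3. These UMIs cannot be told from free RNA, and the difference is not read as a result.

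Between neutrophils and macrophages both pairs of copies were called with TMM and not on raw totals. The wild-type call of Tpm3-rs7 also held with RLE size factors and with DESeq2, at 0.94. In the wild type Tpm3-rs7 had means of 154 CPM in neutrophils and 161 CPM in macrophages, and Tpm3 of 180.2 and 212 CPM. The log2 differences with TMM were 0.84 ± 0.09 for Tpm3-rs7 and 0.69 ± 0.09 for Tpm3 (adjusted p = 2.71e-05 and 0.000109), and on raw totals −0.07 ± 0.09 and −0.23 ± 0.10, neither of them called (adjusted p = 0.502 and 0.0583). Without the library block the difference of Tpm3-rs7 with TMM was not called either (adjusted p = 0.107). Gm8797 had means of 7.30 and 6.09 CPM, and Ubb of 2557 and 2504 CPM. Their differences were 1.19 ± 0.19 and 0.95 ± 0.10 with TMM (adjusted p = 0.000399 and 2.17e-05), and on raw totals 0.28 ± 0.22 and 0.04 ± 0.12, neither of them called (adjusted p = 0.276 and 0.789). Gm8797 lay below free RNA in the macrophages of each wild-type library and in the neutrophils of replicates 1 and 2. Its counts there cannot be told from free RNA.

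Genes beside the members were tested between the genotypes. The files list 300 genes within 1 Mb of a member, none of them near Tpm3-rs7, and 137, 175 and 191 of them had enough counts in neutrophils, macrophages and mesenchymal cells. Across all genes tested, the quasi-likelihood test called 0.446%, 0.449% and 0.107% in these types, and 1317 of 10539, 2536 of 12931 and 1867 of 14951 had an unadjusted p under 0.05, which is 12.5%, 19.6% and 12.5%. In neutrophils and mesenchymal cells the quasi-likelihood test called 0 of them, with 19 and 24 at an unadjusted p under 0.05, and DESeq2 called 3 in each. In macrophages it called 4, of which 2 near Adgrg5 were lower in Nlrp3-/- mice, against 0.278% of all genes, and 2 near Cmc2 were higher, against 0.17%, with 30 at an unadjusted p under 0.05. Ccdc102a, 5.60 kb from Adgrg5, had 6.78, 4.61 and 5.36 CPM in the wild type and 1.52, 2.59 and 2.08 CPM in Nlrp3-/- macrophages, a log2 difference of −1.61 ± 0.24 (adjusted p = 0.0383). Ciapin1, an iron-sulfur protein gene 85.3 kb from Adgrg5, had 57.2, 50.5 and 67.6 CPM against 32.8, 39.1 and 42.4 CPM (log2 difference −0.77, adjusted p = 0.0406).

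The genes near Cmc2 went the opposite way. Gcsh, which encodes the lipoyl carrier of the glycine cleavage system and lies 60.4 kb from Cmc2, had 35.6, 35.8 and 42.2 CPM in wild-type macrophages and 65.1, 73.1 and 82.5 CPM in Nlrp3-/- macrophages (log2 difference 0.80, adjusted p = 0.0190). Pkd1l2, 74.2 kb from Cmc2, had 0.981, 0.599 and 0.766 CPM against 3.66, 2.90 and 3.18 CPM (log2 difference 1.89, adjusted p = 0.0336). In macrophages 4.63% of all genes were higher in the wild type without overlap, and 18.9% in Nlrp3-/- mice. The groups did not overlap in any of the 4 genes. That goes with their calls in the same libraries, so nothing is read from it. These calls numbered 0 with the replicate number as a block, and 0 to 38 when 1 library at a time was left out: 38 without wild-type replicate 3, when 2668 genes in all were called in place of 58, 1 without wild-type replicate 2 or Nlrp3-/- replicate 1, and 0 without wild-type replicate 1 or Nlrp3-/- replicate 2 or 3.

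**Figure D4:**
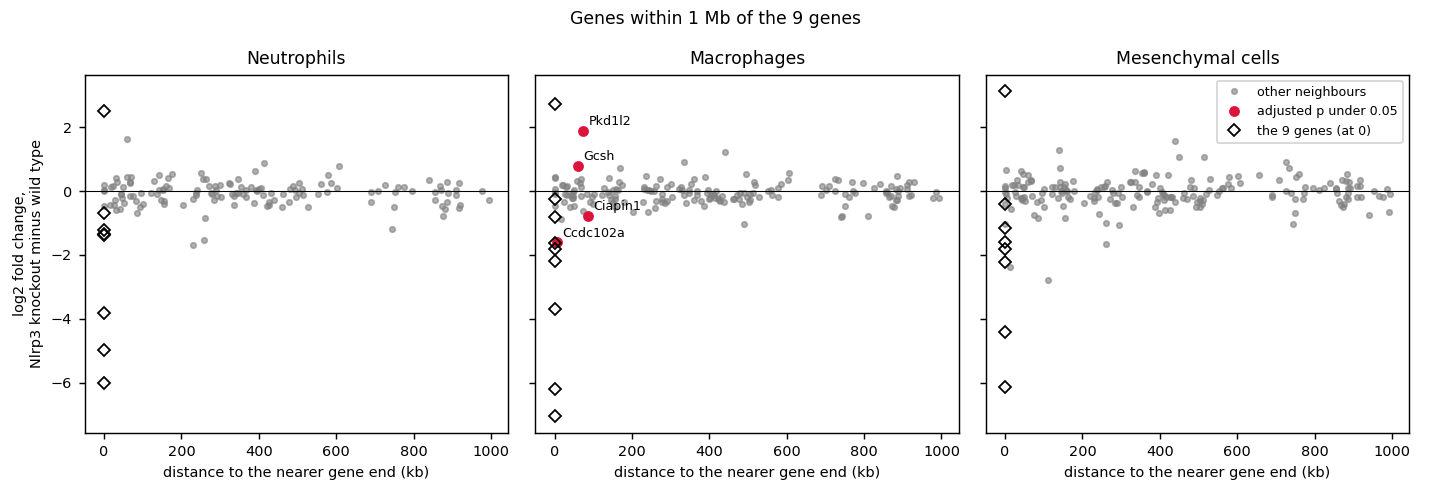
Log2 difference, Nlrp3-/- minus wild type, of the genes within 1 Mb of a member in neutrophils, macrophages and mesenchymal cells (1 panel each), against their distance from it in kb, with called genes in red and the members as open diamonds at distance 0. Most neighbours lie around 0, and the 4 called genes, all in macrophages, are 2 near Adgrg5, which were lower in Nlrp3-/- mice, and 2 near Cmc2, which were higher.

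Genes that share a pathway or family with the members were mostly not called. For TRIF signalling, to which Wdfy1 belongs, 1 of 14 genes tested fell in neutrophils: Irf7, a transcription factor of the interferon response, with 37.9, 30.1 and 29.4 CPM in the wild type and 17.2, 20.6 and 18.7 CPM in Nlrp3-/- mice (log2 difference −1.08 ± 0.17, adjusted p = 0.0494). It did not pass without wild-type replicate 1 or 2 or without Nlrp3-/- replicate 2 or 3, nor with RLE size factors, cells of at least 1000 UMIs, doublets kept, the replicate block or the unnamed cluster added to neutrophils. In macrophages Irf7 had 163, 99.9 and 52.1 CPM against 27.6, 36.8 and 38.0 CPM and was not called (adjusted p = 0.102). No other list gene was called in the 3 main types by edgeR, and DESeq2 called 3, 4 and 3 list genes in neutrophils, macrophages and mesenchymal cells over all lists. For the small subunit of the mitochondrial ribosome without Mrps12, 2 of 27, 7 of 29 and 7 of 29 genes had an unadjusted p under 0.05 in neutrophils, macrophages and mesenchymal cells, and the median log2 difference was −0.14, −0.20 and −0.22, against 0.02, 0.01 and 0.04 over all genes tested. These counts are 7.41%, 24.1% and 24.1% of the list, against 12.5%, 19.6% and 12.5% of all genes tested. For cytochrome c oxidase assembly, 2, 4 and 6 of 17 genes did in the same order, with medians of −0.11, −0.17 and −0.24, which is 11.8%, 23.5% and 35.3% against the same shares of all genes. For NAD synthesis and use it was 1 of 10, 1 of 12 and 1 of 14 genes, and for the family relatives of the members, Tpm3 among them, 1 of 13, 2 of 14 and 2 of 15. In TRIF signalling it was 1 of 14, 2 of 15 and 1 of 15. For these lists too the shares of all genes tested were 12.5%, 19.6% and 12.5%.

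Beside Tpm3, the family relatives had the following log2 differences in macrophages, none of them called. Those of the tropomyosin genes were −0.09 ± 0.15 for Tpm1, −0.69 ± 0.42 for Tpm2 and 0.24 ± 0.14 for Tpm4. Those of the relatives of Wdfy1 were 0.21 ± 0.10 for Wdfy2, 0.25 ± 0.12 for Wdfy3 and −0.14 ± 0.11 for Wdfy4. Nmnat3, the mitochondrial relative of Nmnat1, was at 0.21 ± 0.18, and Nmnat2 had enough counts in mesenchymal cells alone, where it was at 0.10 ± 0.40. Among receptor genes Adgrg1 was at −0.14 ± 0.27, Adgrg3 at −0.64 ± 0.33, Adgrg6 at 0.19 ± 0.17 and Adgre5 at 0.10 ± 0.16. Cmc1, which like Cmc2 acts in cytochrome c oxidase assembly, was at −0.57 ± 0.17 (adjusted p = 0.163), and Cmc4 at −0.14 ± 0.12.

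Of 7 genes known to differ between C57BL/6 substrains, 3 had enough counts in neutrophils and 2 in each of macrophages and mesenchymal cells, and none was called, with 1 at an unadjusted p under 0.05. That was Cyfip2 in macrophages, a partner of the actin regulator WAVE, at 16.9, 15.1 and 29.6 CPM in the wild type and 14.9, 18.7 and 14.04 CPM in Nlrp3-/- mice. Its groups overlapped. Dock2, which activates Rac in leukocytes, had 79.7, 80.7 and 111 CPM in wild-type neutrophils against 104, 138 and 124 CPM in Nlrp3-/- mice (log2 difference 0.15 ± 0.14). Nlrp12 had 7.26, 6.41 and 11.5 CPM against 7.57, 9.12 and 6.85 CPM in neutrophils. Crb1 and Mmrn1 stayed under 1 CPM in every library in the 3 main types. Nnt, the mitochondrial transhydrogenase gene that is deleted in part in one C57BL/6 substrain, is listed under 2 identifiers. It was therefore not in the test of the list, and was looked at by identifier after the data were seen. The first had 15, 22 and 9 UMIs in wild-type macrophages and 11, 21 and 21 UMIs in Nlrp3-/- macrophages, at 0.701, 0.824 and 0.530 CPM against 0.671, 1.33 and 0.741 CPM, and the second had 0 UMIs in the 3 main types. The groups overlapped, at a depth of few UMIs per library. A difference in sequence need not show in UMI levels, so whether the mice differed in substrain was not tested.

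The genes whose levels were most like those of a member were taken over 60 profiles, 10 types in 6 libraries, by Pearson correlation of log2(CPM + 1) among genes of at least 5 CPM on average. The profiles share libraries, so the values are descriptions. They also span both groups, and the members were chosen for a difference between the same groups that Xist and the Y-linked genes separate, so a high correlation with those genes follows from the choice. For Tpm3-rs7 the closest were the Y-linked genes Ddx3y (r = 0.96), Uty (0.95) and Eif2s3y (0.95), and for Gm8797 they were Xist (0.95) and its antisense RNA Tsix (0.93), followed by AC149090.1 (0.74). Wdfy1 was closest to Ddx3y (0.69) and Nmnat1 to Uty (0.81). Adgrg5 was closest to Klrk1 (0.85), a receptor of NK cells, Cmc2 to the replication histone gene Hist1h1a (0.82) and Mrps12 to Rpl31 (0.90) and Ndufa5 (0.90). Gm42031 was closest to Ubl5 (0.81), and Gm49980 to Gm43305 (0.82).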

How the data were processed

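The authors deposited, for each of the 6 libraries, a raw matrix of UMI counts per gene and barcode, with no normalization. The matrix header names Cell Ranger 4, while the submitters' processing notes list Cell Ranger 2.1.1 and mm10. Gene positions came from the GENCODE annotation of GRCm38, which held 32235 of the 32285 identifiers, 31502 of them with equal symbols.

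Barcodes with at least 500 UMIs, at least 200 genes, at most 10% mitochondrial UMIs and a profile that differed from the ambient one at a false discovery rate of 0.01 were taken as cells. From 94272 such cells, 13279 with the highest doublet scores were dropped, assuming 0.8% doublets for every 1000 cells of a library. Cells were clustered with scanpy 1.11.5 (2000 variable genes, 30 components, 15 neighbours, leidenalg 0.10.2 at resolution 1.0) and named from marker lists. Clusters in which 1 library gave over 75% of the cells, at a depth below that library's median, were set aside, and deeper ones were kept in their type.

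UMIs were summed per library and type. Fits used edgeR 4.0.16 in R 4.3.3 (TMM, filterByExpr, quasi-likelihood test, Benjamini-Hochberg adjustment over all genes, threshold 0.05; SE as the log2 difference over the square root of F), with DESeq2 1.42.0 as an alternative. Transcripts were aligned with blastn 2.17.0. On simulated data in which 200 genes of the real mean counts were changed, 93%, 97% and 98% of the genes changed 2-fold between genotypes were recovered in neutrophils, macrophages and mesenchymal cells, and 100% of those changed 4-fold. The simulated counts had the same spread between libraries for every gene, and only well counted genes were changed. These shares can therefore overstate what the real libraries could show, and genes not called there cannot be taken as unchanged. Counting error was largest where a type had few cells, as in the B cells of Nlrp3-/- replicate 1 with 161695 UMIs, while the SEs also hold the spread between libraries, which exceeded counting error for some members such as Tpm3-rs7.

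The text names the 9 members, the called genes within 1 Mb, called list genes and detected genes of the substrain and family lists, and the closest genes by correlation. One gene of the substrain list is not reported here. The members and lists were chosen with earlier results of these data known. Replicate numbers in the labels name samples and were not used as pairs: deviations of same-numbered libraries correlated at −0.194, −0.579 and −0.101.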

Additional observations from a re-analysis of the deposited data

Results flagged for a closer look

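Adgrg5 lay on opposite sides of 0 in different cell types. The log2 difference, Nlrp3-/- minus wild type, was 0.44 ± 0.32 (SE) in T and NK cells, where each Nlrp3-/- library lay above each wild-type library, as for 10.9% of all genes, and −2.13 in conventional dendritic cells, −7.05 in macrophages, −5.51 in myeloid progenitors and −5.22 in plasmacytoid dendritic cells, where each lay below. The difference between these types was not tested.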

How the results depend on the processing

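Apart from DESeq2, with which the members' differences were not taken, no alternative changed the sign of a member's difference between genotypes in the 3 main types: 294 of 299 values moved by less than 1 SD. The members were chosen for this difference in the same counts, so steady signs follow from the choice. The members without overlap numbered 7 to 9 in mesenchymal cells, 8 or 9 in macrophages and 9 in neutrophils when libraries were left out or scaled by TMM (chosen after seeing the data). A filter on low counts does not apply to that count. The share of all genes without overlap was not computed with a library left out, and nothing is read from these counts. Neighbour calls in neutrophils went from 0 to 3 with DESeq2, and to 0 to 3 with a library left out (3 without Nlrp3-/- replicate 1). In macrophages they went from 4 to 10 with DESeq2, to 0 with the replicate block, and to 0 to 38 with a library left out. In mesenchymal cells they went from 0 to 3 with DESeq2. List calls in neutrophils went from 1 to 0 with RLE size factors, cells of at least 1000 UMIs, doublets kept, the replicate block or the unnamed cluster added to neutrophils (chosen after seeing the data), to 2 without a filter, to 3 with DESeq2 and to 0 to 2 with a library left out. In macrophages they went from 0 to 1 without a filter, 4 with DESeq2 and 0 to 22 with a library left out (22 without wild-type replicate 3), and in mesenchymal cells from 0 to 3 with DESeq2. The causes were not tested. Over all genes, calls in neutrophils, macrophages and mesenchymal cells went from 47, 58 and 16 to 14, 32 and 4 with the replicate block and to 166, 627 and 246 with DESeq2; without a filter they were 72 and 123 in the first 2, and with a library left out 15 to 215, 26 to 2668 and 4 to 18. The members called between neutrophils and macrophages in the wild type ranged over 7 to 9 with a library left out. Those called between types in Nlrp3-/- mice ranged with a library left out over 4 to 8, 1 to 3 and 5 to 7 for neutrophils and macrophages, mesenchymal cells and macrophages, and mesenchymal cells and neutrophils. On raw totals (chosen after seeing the data) those counts went from 7 to 3 in the first pair and from 8 to 4 in the last. Without clusters mostly of 1 library (chosen after seeing the data), Nmnat1 in the wild type was at −0.00347 for mesenchymal cells minus macrophages. Signs that reversed on raw totals were, for neutrophils minus macrophages in the wild type, Wdfy1 at −0.34, Tpm3-rs7 at −0.0720 and Gm49980 at −0.50, and in Nlrp3-/- mice Gm49980 at −0.10 and Cmc2 at −0.40. For mesenchymal cells minus neutrophils they were Wdfy1 at 0.52, Gm49980 at 0.50 and Adgrg5 at 0.00623 in the wild type, and Gm49980 at 0.0277 and Cmc2 at 0.16 in Nlrp3-/- mice, and for mesenchymal cells minus macrophages Gm49980 at 0.00299 and Cmc2 at 0.00149 in the wild type and Nmnat1 at 0.0272 in Nlrp3-/- mice. The other reversals were of differences between mesenchymal cells and macrophages that were not called. With a library left out, the wild-type values ranged from −0.0355 to 0.0988 for Nmnat1 (lowest without replicate 1), from −0.0452 to 0.0935 for Wdfy1 (lowest without replicate 3) and from −0.311 to 0.0434 for Cmc2 (highest without replicate 3). The Nlrp3-/- values ranged from −0.200 to 0.0817 for Nmnat1, positive without replicate 1 or 3, and from −0.188 to 0.263 for Wdfy1, negative without replicate 1 or 3. In Nlrp3-/- mice Nmnat1 was at 0.0241 with RLE size factors, 0.00424 without a filter, 0.0102 with no library block and 0.0228 with DESeq2, and Wdfy1 at −0.00852 with doublets kept. Types with few cells limit what could be detected.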
